A study of Mus musculus with 6 samples.

Results

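The transcripts described here were 6 genes of the early oligodendrocyte lineage, measured on coronal sections through the brains of male C57BL/6J mice. They were a list of 6 names, all found once among 32285 genes in the feature tables. Pdgfra and Cspg4 mark oligodendrocyte precursors, and Gpr17, Bmp4, Enpp6 and 9630013A20Rik mark committed precursors, the stage between a dividing precursor and a myelinating cell. The members were selected on their known roles and with results of these same sections in view, the lower white matter Gpr17 at 18 months among them. That contrast is therefore given without a test, and the age patterns of the list are a description that supports nothing further.

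Each section came from a flash-frozen brain cut at 16 micrometres and placed on a Visium slide, which captures polyadenylated RNA on a grid of barcoded spots and counts molecules by unique molecular identifiers (UMIs). The 6 sections made up 3 ages with 2 mice each: young (6 months), middle (18 months) and old (21 months). No treatment or transgene was named. Middle 2 and old 2 lay on a second slide and the other 4 sections on the first, so slide and age cannot be fully told apart. A Visium spot is a small patch of tissue that can hold several cells, so levels belong to spots and not to cells.

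Oligodendrocyte precursors are a resident population of the adult brain. They divide, respond to platelet-derived growth factor through the receptor Pdgfra, and carry the proteoglycan Cspg4 (NG2) on their surface. On leaving the cycle they pass through a short committed stage and then either mature into myelin-forming cells or are lost. Gpr17 is a G protein-coupled receptor of that stage, Bmp4 a secreted ligand, Enpp6 a choline phosphodiesterase, and 9630013A20Rik a long non-coding RNA also called lncOL1. Outside the lineage, Pdgfra is also made by fibroblasts and Cspg4 by pericytes.

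In the GENCODE M21 annotation of GRCm38, the same assembly as mm10, Pdgfra (ENSMUSG00000029231) lay on chromosome 5 from 75152292 to 75198215 and Cspg4 (ENSMUSG00000032911) on chromosome 9 from 56865033 to 56899870, both on the plus strand. Enpp6 (ENSMUSG00000038173) lay on chromosome 8 from 46986887 to 47096762 on the plus strand. Bmp4 (ENSMUSG00000021835) and 9630013A20Rik (ENSMUSG00000115529) lay on the minus strand of chromosome 14, from 46383520 to 46390669 and from 84458639 to 84476424. 9630013A20Rik is annotated as antisense and overlaps Pcdh17 on the other strand, and Gpr17 (ENSMUSG00000052229) overlaps Lims2 on the other strand. Whether strand was used in counting is not given in the sources used here, so reads of these overlapping pairs may not be separable.

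The sequences upstream of 9630013A20Rik and Enpp6 are shown because these 2 committed genes behaved most differently across age: the first had the largest fold difference of the 6 and the second nearly none. They are the 250 bases before the RefSeq start in GRCm38.p6, read 5′ to 3′ on the strand of the gene, at chr14:84476425-84476674 (minus strand) and chr8:46986637-46986886 (plus strand). Capitals mark matches to a SOX-type motif (ACAATG) or an E-box (CAGCTG).

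9630013A20Rik: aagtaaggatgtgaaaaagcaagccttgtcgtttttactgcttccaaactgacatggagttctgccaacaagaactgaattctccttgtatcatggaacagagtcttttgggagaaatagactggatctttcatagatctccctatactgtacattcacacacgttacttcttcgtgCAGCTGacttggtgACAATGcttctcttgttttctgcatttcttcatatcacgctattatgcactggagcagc
Enpp6: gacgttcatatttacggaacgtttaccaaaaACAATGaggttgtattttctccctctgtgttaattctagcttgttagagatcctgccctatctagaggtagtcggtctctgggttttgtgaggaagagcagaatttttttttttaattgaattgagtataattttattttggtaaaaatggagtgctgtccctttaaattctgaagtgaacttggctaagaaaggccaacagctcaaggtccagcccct

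Both stretches held 1 ACAATG, at 59 bases before the start of 9630013A20Rik and 219 bases before that of Enpp6, and the first also held 1 CAGCTG at 73 bases before its start. ACAATG occurred on either strand in 10.7% of 32851 upstream windows of the same length and CAGCTG in 13.0%. Of the other motifs searched on both strands, neither stretch held ACAAAG, present in 16.5% of all windows, nor CATCTG, present in 14.4%. Likewise neither held the GC box GGGCGG, present in 32.7%, or TATAAA, present in 12.4%. Of the other members with a window, Pdgfra held 1 CATCTG, Cspg4 2 GGGCGG and Bmp4 1 GGGCGG. GC content was 41.2% for 9630013A20Rik and 38.4% for Enpp6, and between 54.4% and 63.2% for Pdgfra, Cspg4 and Bmp4, against a median of 52.4% over all windows.

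A total of 16741 spots with at least 500 UMIs were kept of 16743, with 60938938 to 77557934 UMIs per section. The median spot held 25904.5 to 30093 UMIs in the young and middle sections and 20370 and 21766 in the old ones. Levels are UMIs per 1000000 UMIs (CPM), which does not remove the counting error that fewer UMIs bring. Between 2082 and 2826 spot barcodes were shared by each pair of sections, as the slides carry the same barcode grid. Spots were clustered without the 6 genes, and clusters were named from region markers; 623 spots stayed unnamed. White matter held 1740 spots in a cluster with C4b, Apod, Gfap, Mal and Trf among its leading genes. One of the 3 clusters named hypothalamus had Pmch, Spp1, Lhx1os and Lhx8 among its leading genes, so that name is uncertain for its 842 spots. The hippocampal region held only 60 spots in young 1, against 174 to 279 in the other 5 sections.

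Across whole sections neither precursor gene passed the test between ages, and of the committed genes 9630013A20Rik fell from 6 to 18 months, with Gpr17 lower in every later section without passing. Pdgfra was at 17.6 and 20.0 CPM at 6 months, 18.1 and 19.8 CPM at 18 months, and 20.7 and 20.4 CPM at 21 months. Cspg4 was at 9.24 and 9.62, then 10.2 and 10.4, then 10.8 and 11.5 CPM. For both, the old values lay above the young ones, and for Pdgfra by little. In spots outside white matter Cspg4 was at 8.61 and 9.07 CPM in young, 9.76 and 9.96 in middle, and 10.4 and 10.8 in old, with no overlap. Both old Pdgfra values there (20.2 and 19.9 CPM) lay above the other 4 (17.1 to 19.5). In whole sections 32.1% of all genes were higher in both old sections than in both young ones, and the share in these spots was not counted. Summed over 10 pericyte and mural genes, whole sections had means of 151, 170 and 174 CPM in young, middle and old. The part of those cells in the Cspg4 levels was not tested. In the fit the old against young log2 fold change was 0.08 (SE 0.07, edgeR adjusted p = 0.671) for Pdgfra and 0.19 (SE 0.07, adjusted p = 0.347) for Cspg4.

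9630013A20Rik fell with age. It was at 2.25 and 1.83 CPM at 6 months (173 and 142 UMIs), at 0.498 and 0.651 CPM at 18 months (38 and 49 UMIs), and at 0.565 and 0.574 CPM at 21 months (39 and 35 UMIs). Both young values lay far above the other 4, which overlapped each other. The log2 fold change was -1.89 for old against young (SE 0.22, edgeR adjusted p = 0.0293) and -1.85 for middle against young (SE 0.21, adjusted p = 0.0479), in a fit across 17673 genes of which 0.164% and 0.0679% passed. Middle and old did not differ beyond their spread (-0.04, SE 0.24). Leaving out any section other than young 2 ended the old against young call, with adjusted p from 0.0646 (without young 1) to 0.267 (without old 2), and the same 5 sections ended the middle against young call (adjusted p 0.0544 to 0.372). Both calls were also lost with slide as a block (adjusted p = 0.137 and 0.181) and with the replicate number as a block (0.0581 and 0.0661).

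Gpr17 was at 13.6 and 19.4 CPM in the young sections and 10.7 to 11.4 in the other 4. The groups did not overlap, yet the 2 young sections stood apart from each other, and the log2 fold changes of -0.61 for old (SE 0.14, edgeR adjusted p = 0.199) and -0.63 for middle (SE 0.14, adjusted p = 0.385) did not pass the threshold. Without young 1 it passed (-0.82 for old, adjusted p = 0.0177), and it passed in DESeq2 with all sections (-0.61, adjusted p = 0.0182). Bmp4 was scarce, at 2.24 and 1.86 CPM in young, 1.59 and 1.36 in middle and 1.78 and 1.44 in old. Enpp6 was at 11.2 and 10.3 CPM in young, 10.9 and 9.99 in middle and 10.4 and 13.6 in old, and the groups overlapped. Of the 6 genes 1 passed the threshold in old against young, where 0.164% of all genes did. On the CPM scale, 3 of the 6 were lower in both old sections than in both young ones, against 12.8% of genes, and 2 were higher in both, against 32.1%. From bulk spots, fewer cells of a stage and less RNA per cell cannot be told apart.

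**Figure D1:**
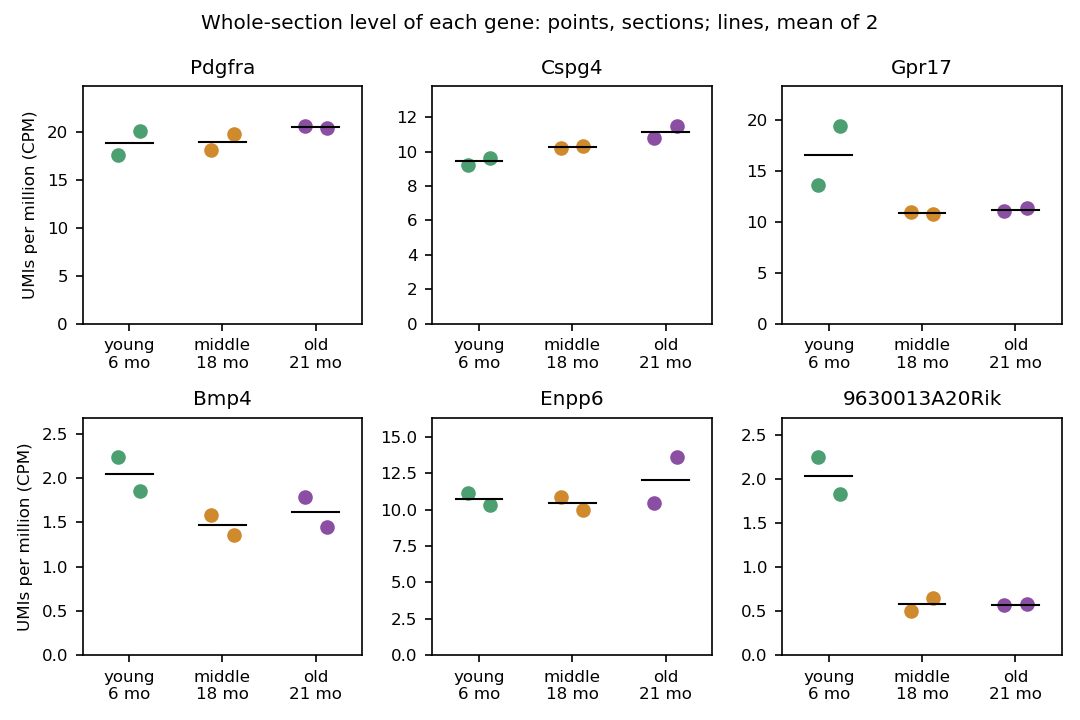
CPM (y axis) of each gene in the 6 sections (points), by age, with the mean of 2 as a line; the y axes differ between genes. 9630013A20Rik lay at 1.83 CPM or above in the young sections and at 0.651 or below in the rest, while Pdgfra and Cspg4 spanned 17.6 to 20.7 and 9.24 to 11.5 CPM.

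Set against the precursors, the committed transcripts as a sum were fewer from 18 months, but not each of the 4 genes. Gpr17 gave 1048 and 1508 UMIs in young, 836 and 807 in middle, and 761 and 693 in old sections. Enpp6 gave 859 and 801, then 830 and 752, then 720 and 829. The 4 committed genes gave 1.09 and 1.13 UMIs per UMI of the 2 precursor genes in young brains, 0.846 and 0.754 in middle ones, and 0.756 and 0.844 in old ones. Gpr17 alone gave 0.776 and 0.970 UMIs per Pdgfra UMI in young, 0.606 and 0.542 in middle and 0.534 and 0.556 in old. Both ratios put the young sections above all others and did not separate middle from old. They rest on the same genes and sections as above and add no test.

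The 6 genes were laid out differently over the brain. Enpp6 was the most white-matter-bound: its median over the 6 sections was 99.3 CPM in white matter and 26.7 in the choroid plexus and ventricle, the next region, with white matter higher in 6 of 6 sections. White matter held 43.2% of Enpp6 UMIs in a section, on average, and 5.06% of all UMIs. The white matter level was 11.1 to 18.6 times that of all other spots for Enpp6, 2.01 to 5.07 times for Gpr17, 1.83 to 8.72 times for 9630013A20Rik, 1.83 to 2.57 times for Cspg4 and 1.37 to 1.72 times for Pdgfra. For Bmp4 it was 0.623 to 3.43 times, above 1 in 3 of 6 sections.

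Precursor genes were spread over grey and white matter. Pdgfra had medians of 32.3 CPM in the choroid plexus and ventricle, 31.0 in the meninges and 28.7 in white matter, and these 3 neighbours did not differ beyond their spread. It was lowest in the isocortex (median 12.8 CPM, below the hippocampal region in 6 of 6 sections). Cspg4 was highest in white matter (median 19.8 CPM, above the meninges in 6 of 6 sections by 4.13 ± 4.09 CPM, mean and SD of the paired gap) and had its lowest median in the isocortex (6.86), which lay below the hippocampal region in only 4 of 6 sections. Between them the thalamus, hypothalamus, striatum and amygdala did not separate for Cspg4.

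Bmp4 followed another layout, with a median of 13.6 CPM in the meninges, 6.21 in the choroid plexus and ventricle and 2.42 in white matter. The meninges held 40.7% of its UMIs. Summed over 10 genes, the fibroblast markers had a median of 488 CPM in the meninges, 674 in the choroid plexus and ventricle and 16.7 in the isocortex. The part of fibroblast RNA in the Bmp4, Pdgfra and Cspg4 levels there was not tested.

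**Figure D2:**
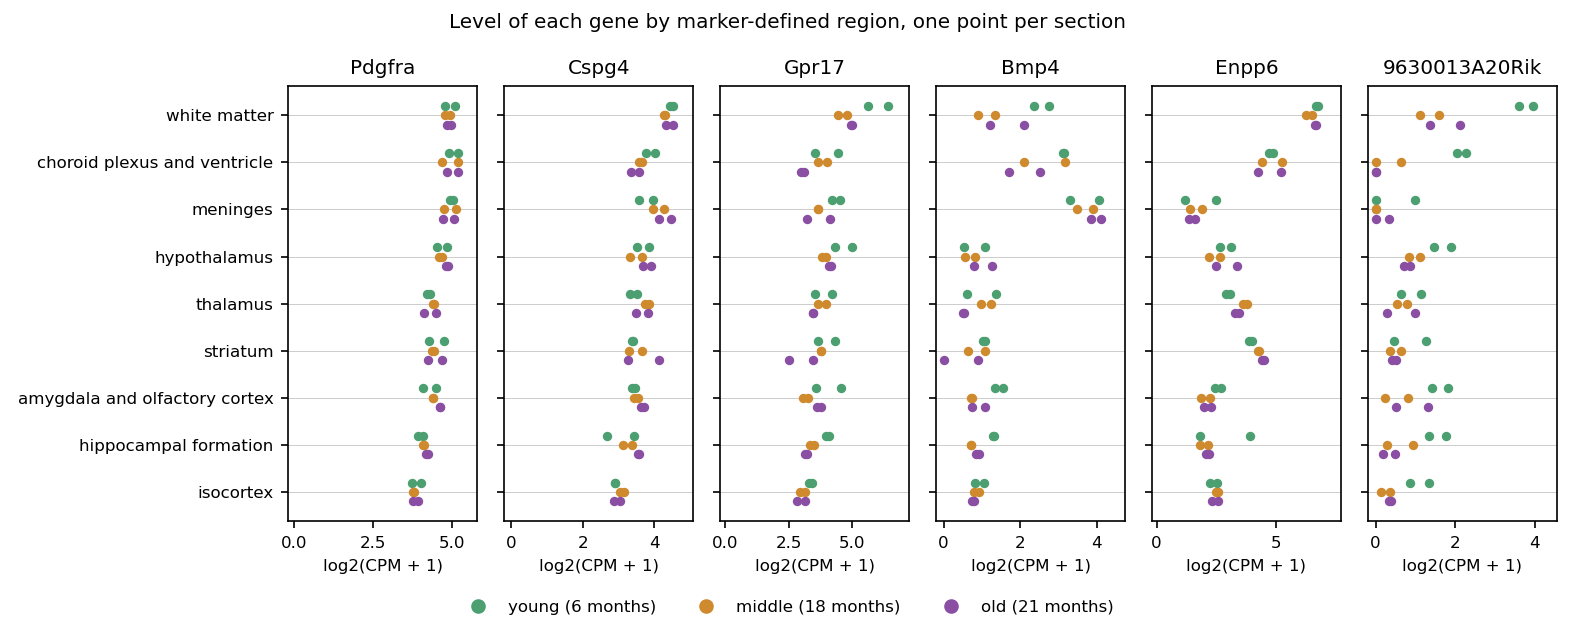
Level of each gene, as log2(CPM + 1) (x axis), in 9 marker-defined regions (rows), one point per section coloured by age; x axes differ between genes. Enpp6 peaked in white matter (median 99.3 CPM), Bmp4 in the meninges (13.6 CPM), and Pdgfra was similar in white matter, meninges and choroid plexus (28.7 to 32.3 CPM).

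The genes whose levels were most like each member's over 124 sums of a cluster in a section, among 11290 genes, are given next. These sums share sections and depth, and the correlations are descriptions. Enpp6 ran with Dbndd2, Cnp, Ermn, Fa2h and Ugt8a (r = 0.94 each), of which Cnp, Ermn, Fa2h and Ugt8a are myelin genes. The 5 genes most like Pdgfra were Vmac (r = 0.75), the precursor gene C1ql1 (0.72), Cspg4 (0.72), Hexa (0.70) and Efs (0.68). Those most like Cspg4 were Pdgfra (0.72), C1ql1 (0.70), Caskin2 (0.65), Anxa3 (0.65) and Vmac (0.65). Those most like Gpr17 included Ncam1 (r = 0.65), C1ql1 (0.64), Pdgfra (0.63) and Sri (0.61), and its likeness to Enpp6 was lower (r = 0.45). Bmp4 was like Bgn, Slc13a4, Pcolce, Mgp and Slc6a20a (r = 0.69 to 0.73), genes of the meninges. 9630013A20Rik, with few UMIs, reached at most r = 0.55 (Ddit4).

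In white matter spots 2 committed genes, Gpr17 and 9630013A20Rik, fell from young to old, and neither precursor gene passed the test. Pdgfra was at 26.6 and 33.4 CPM in young, 29.5 and 26.6 in middle and 30.2 and 27.8 in old. Cspg4 was at 22.1 and 20.7, then 18.5 and 18.3, then 19.0 and 21.8 CPM. Old and young values overlapped for both (log2 fold changes -0.11, SE 0.16, and -0.13, SE 0.18). Enpp6, the most abundant, was at 100 and 105 CPM in young, 88.2 and 75.3 in middle and 101 and 98.1 in old, so old and young overlapped (-0.11, SE 0.11).

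Gpr17 in white matter was at 48.4 and 82.6 CPM at 6 months, 26.9 and 20.6 CPM at 18 months, and 30.2 and 30.4 CPM at 21 months. Old lay below young by 1.17 on the log2 scale (log2 fold change -1.17, SE 0.23, edgeR adjusted p = 0.0342), a call lost with either middle or either old section left out (adjusted p 0.0718 to 0.328) or with slide as a block (-1.07, adjusted p = 0.204). This comparison shares its young sections with the fall known at listing. 9630013A20Rik was at 14.4 and 11.1 CPM in young (52 and 41 UMIs), 2.03 and 1.15 in middle (8 and 4 UMIs) and 3.32 and 1.56 in old (11 and 6 UMIs). It fell by 2.47 on the log2 scale from young to old (SE 0.37, edgeR adjusted p = 0.000131). Of the later sums only that of old 1 reached 10 UMIs. The gene thus passed the low-count filter of this fit through its young sections, where it was high. The call was kept in 17 of 17 alternative fits, none of which asked at least 10 UMIs of every sum. The young sections here too are those of the fall known at listing, so this p is no independent support. Bmp4 was at 4.15 and 5.71, then 1.52 and 0.859, then 3.32 and 1.3 CPM, on 3 to 21 UMIs (old against young -1.18, SE 0.49, adjusted p = 0.271).

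Of the 6 genes, 2 passed the threshold in white matter, both lower in old, where 2.26% of 12755 genes passed and 0.729% passed as lower. On the CPM scale, 3 were lower in both old sections than in both young ones, against 14.1% of genes. For middle against young the folds are given without a test, since that fall was known when the genes were listed: the log2 fold change was -2.99 for 9630013A20Rik, -2.03 for Bmp4, -1.49 for Gpr17, -0.36 for Enpp6, -0.25 for Cspg4 and -0.13 for Pdgfra. From middle to old, Gpr17 was 0.31 higher (SE 0.27) and Enpp6 0.25 higher (SE 0.11), and neither passed (edgeR adjusted p = 0.831 and 0.529, where 0.259% of genes did). In white matter the committed genes gave 3.44 and 3.77 UMIs per precursor UMI in young, 2.47 and 2.18 in middle and 2.80 and 2.64 in old. Enpp6, whose levels ran with myelin genes, had the highest CPM of the committed genes in white matter of every section. The sum therefore leans on Enpp6. Gpr17 alone gave 1.82 and 2.47 UMIs per Pdgfra UMI in young, 0.914 and 0.774 in middle and 1.00 and 1.09 in old.

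**Figure D3:**
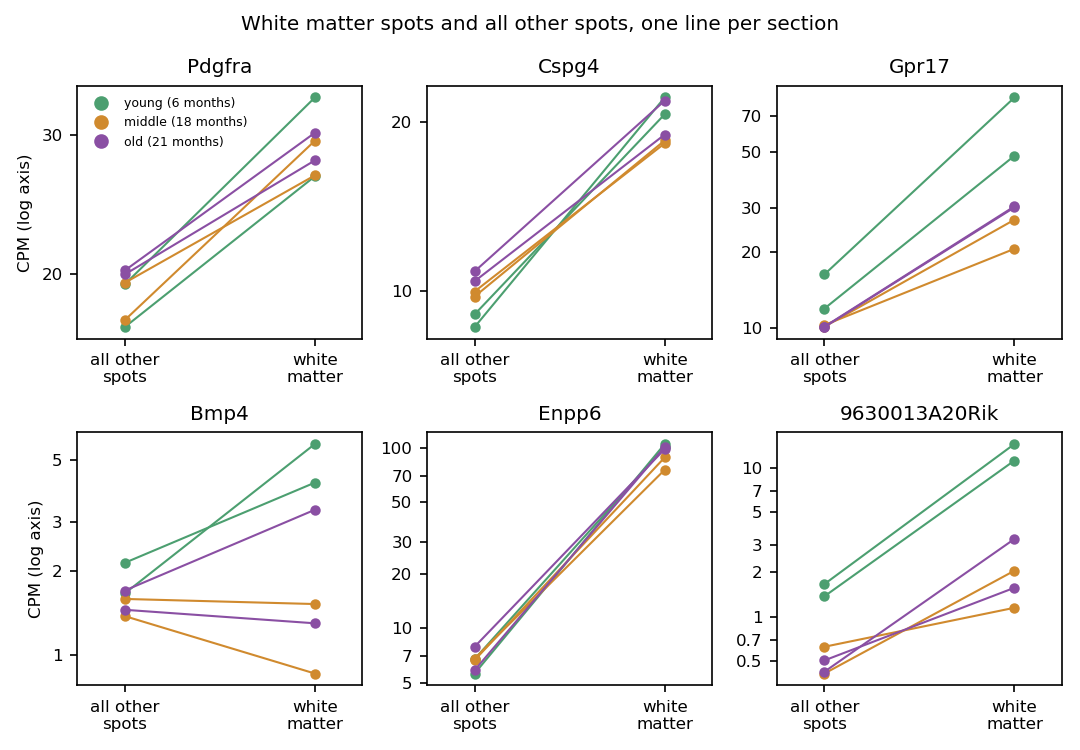
CPM on a log axis (y) in all other spots and in white matter spots (x), one line per section coloured by age. The young lines stand above the rest for Gpr17 and 9630013A20Rik in white matter (48.4 and 11.1 CPM or more against 30.4 and 3.32 or less), and old and young overlap there for Pdgfra and Cspg4, whose old values are the highest in all other spots.

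For Gpr17 the values outside white matter were set against those within. In all other spots Gpr17 was at 11.9 and 16.3 CPM in young and 10.1 to 10.2 in the other 4 sections. The old against young change in white matter minus that in all other spots was -0.63 (SE 0.17, edgeR adjusted p = 0.0261), in a fit where 1.31% of 16797 genes passed. Its young sections are those of the fall known when the genes were listed, so this p is no independent support. This call was lost without young 2 (-0.44, adjusted p = 0.489), without either old section, with at least 10 UMIs asked of every sum, with the newer dispersion estimate, and without the single spot of most Gpr17 UMIs in each section (-0.48, adjusted p = 0.190). No other member passed this test, with -0.74 for 9630013A20Rik and -0.88 for Bmp4. In the 8 regions outside white matter no member passed in old against young, and the Gpr17 fold change was below 0 in 8 of 8, from -0.45 in the isocortex to -1.05 in the choroid plexus and ventricle. These regions are parts of the same sections, so the 8 values are not independent. The share of all genes below 0 in all 8 regions was not counted. All genes gave few calls there too: 0.175% passed in the isocortex, 0.146% in the meninges, 0.145% in the striatum, 0.0798% in the thalamus, 0.0655% in the amygdala, 0.0553% in the hypothalamus, 0.0419% in the choroid plexus and 0.015% in the hippocampal region.

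Part of the Gpr17 signal sat in few spots. Spots with 5 or more of its UMIs, a threshold chosen after the values were seen, numbered 18 and 45 for young, 12 and 9 for middle, and 12 and 8 for old. Of these 104 spots 31 were in white matter. They held 28.6% of all Gpr17 UMIs in young 2 and 8.55 to 13.1% in the other 5 sections. For comparison, Pdgfra had 85 such spots in all, Enpp6 65 (48 in white matter), Cspg4 12, 9630013A20Rik 10 and Bmp4 4. The threshold is in raw UMIs, and the old sections had fewer UMIs per spot. Pdgfra, whose CPM did not fall in whole sections, had 17 and 17 such spots in young, 15 and 15 in middle, and 11 and 10 in old. Enpp6 had 13 and 15, then 8 and 5, then 10 and 14. The part of depth in these counts was not tested. One white matter spot of young 2 held 63 Gpr17 UMIs of 19683, with 33 of Bcas1, 15 of Lims2, 11 of Fyn, 7 of Tnr, 6 of Vcan, 6 of Enpp6, 5 of Neu4 and 4 of Bmp4, and 0 of Pdgfra and Cspg4. Without the richest spot of each section, Gpr17 in white matter stood at 45.0 and 65.9 CPM in young, 26.9 and 20.6 in middle and 26.0 and 30.4 in old. The young sections stayed the highest. In middle 1, middle 2 and old 2 the richest spot lay outside white matter, so their white matter values did not change.

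**Figure D4:**
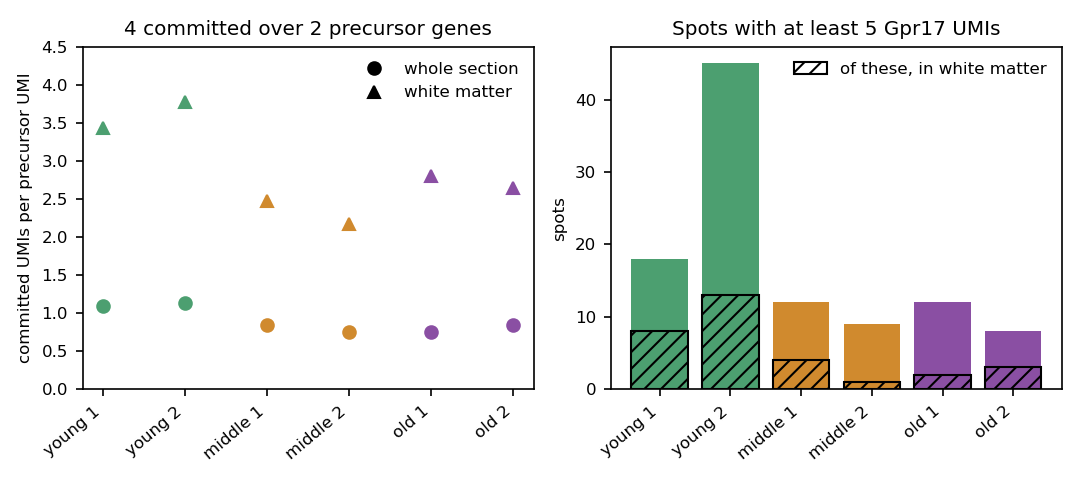
Left, UMIs of the 4 committed genes per UMI of the 2 precursor genes (y axis) in whole sections (circles) and white matter (triangles); right, spots with at least 5 Gpr17 UMIs (bars; hatched, those in white matter), by section (x axes). Both young sections stand above the others in each, and young 2 holds 45 of the 104 spots. The threshold of 5 UMIs was not adjusted for depth.

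To see which genes lay beside these transcripts, spots with a Gpr17 UMI were set against spots without one, matched on cluster, section and total UMIs, over 6 sections with section as a block. In white matter (53 to 106 pairs a section), precursor genes were higher beside Gpr17. Pdgfra was at 31.4 to 56.4 CPM with a Gpr17 UMI (median 48.6) and 19.2 to 24.4 without (median 21.4), with no overlap, and rose by 1.07 on the log2 scale (SE 0.16, edgeR adjusted p = 1.97e-08). Cspg4 was at 29.5 to 38.1 CPM with and 11.6 to 19.8 without (log2 fold change 1.05, SE 0.18, adjusted p = 1.31e-05). Enpp6 was at 84.6 to 122 CPM with and 59.2 to 106 without, higher in 4 of 6 sections, and did not pass (0.11, SE 0.09, adjusted p = 0.944). With each spot thinned to 5000 UMIs the calls of Pdgfra (0.87, adjusted p = 0.189) and Cspg4 (0.83, adjusted p = 0.802) were lost, and DESeq2 did not call Cspg4 (1.08, adjusted p = 0.247). The thinned setting took spots of at least 5000 UMIs, split anew by their thinned counts and not matched. It left 20 to 58 spots with a Gpr17 UMI a section, so the lost calls also come with fewer counts.

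The other genes named by size in white matter were Neu4, a sialidase (log2 fold change 1.68), the matrix protein Tnr (1.35), Sh3bp4 (1.02), Lims2 (0.99), Samd14 (0.92) and Cacng4 (0.74), all higher in 6 of 6 sections with adjusted p of 0.00781 or less. Lims2 overlaps Gpr17 on the opposite strand, so its rise may share reads with the anchor gene. Of 16 further precursor genes 13 were tested and 6 rose, with a median of 0.31. Of 18 further committed genes 12 were tested and 3 rose (Neu4, Lims2 and Fyn), with a median of 0.34. Of 13 mature oligodendrocyte genes none passed (median 0.00), and 0.206% of 9205 genes rose in all. Bmp4 and 9630013A20Rik did not pass the filter on low counts, with 41 UMIs against 5 and 72 against 16 in spots with and without Gpr17. Without that filter they rose by 2.80 (SE 0.58, adjusted p = 0.0018) and 2.04 (SE 0.38, adjusted p = 0.000198). These UMIs were uneven over sections. For 9630013A20Rik 35 and 25 of those beside Gpr17 lay in young 1 and young 2, with 6, 2, 3 and 1 in the later sections, and old 2 went the other way (1 against 2). Bmp4 had 1 UMI against 0 in each middle section.

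In the isocortex (94 to 171 pairs a section) the same test gave Pdgfra at 19.4 to 27.1 CPM with a Gpr17 UMI and 10.3 to 13.4 without (0.93, SE 0.09, edgeR adjusted p = 8.53e-14) and Cspg4 at 8.90 to 14.0 against 5.23 to 7.36 (0.85, SE 0.13, adjusted p = 1.46e-06). Thinned to 5000 UMIs a spot, neither passed (1.07, adjusted p = 0.869, and 1.15, adjusted p = 0.985). That unmatched setting left only 21 to 40 spots with a Gpr17 UMI a section. Enpp6 was higher in 5 of 6 sections without passing (0.53, SE 0.18, adjusted p = 0.303), and 0.266% of all genes rose. Of 16 further precursor genes 11 rose, among them Vcan (1.17), C1ql1 (0.96), Cacng4 (0.83), Lhfpl3 (0.69), Olig2 (0.53), Sox10 (0.43) and Olig1 (0.39). Hes5, a target of Notch, rose by 0.39. Of 15 tested further committed genes 3 rose, namely Neu4 (1.42), Lims2 (0.57) and Sirt2 (0.17), and no mature gene did. Fibroblast, mural and endothelial genes gave no call in either region.

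Spots with a Pdgfra UMI were compared in the same way. In white matter Cspg4 rose (1.01, SE 0.19, edgeR adjusted p = 0.00142, higher in 5 of 6 sections, where 0.181% of all genes rose), though DESeq2 did not call it (1.06, adjusted p = 1.00), and 8 of 13 tested further precursor genes rose, with Cacng4 at 0.82, C1ql1 at 0.78 and Lhfpl3 at 0.70. Ppfibp1 (1.22), Neu4 (1.03), Rlbp1 (0.77) and Slc35f1 (0.71) also rose. Gpr17 was higher in 5 of 6 sections without passing (0.53, SE 0.35, adjusted p = 0.902). Without young 2, whose richest Gpr17 spot had no Pdgfra UMI, it passed (1.00, adjusted p = 0.000438). Enpp6 did not differ detectably (-0.05, SE 0.09).

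In the isocortex, spots with a Pdgfra UMI had more Cspg4 (0.94, SE 0.11, edgeR adjusted p = 2.66e-11) and Gpr17 (0.85, SE 0.10, adjusted p = 1.65e-10), and 13 of 16 further precursor genes rose, against 0.423% of all genes. Of 16 tested further committed genes only Neu4 rose (1.21). Thinned to 5000 UMIs a spot, neither member passed (0.60, adjusted p = 0.979, and 1.15, adjusted p = 0.665). That unmatched setting left only 31 to 47 spots with a Pdgfra UMI a section. Fibroblast and mural genes rose beside Pdgfra here: Dcn by 0.98 and Igf2 by 0.86 of 6 fibroblast genes tested, and Myh11 by 0.95, Tagln by 0.92 and Acta2 by 0.84 of 9 mural genes. In white matter Dcn rose by 0.80. The part of those cells in the Pdgfra levels was not tested, and the difference between the Gpr17 and Pdgfra comparisons was not tested either. In the isocortex 21 genes rose beside both, 61.8% of the 34 that rose beside Gpr17 and 36.8% of the 57 that rose beside Pdgfra. In white matter 9 rose beside both, 47.4% of 19 and 52.9% of 17.

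**Figure D5:**
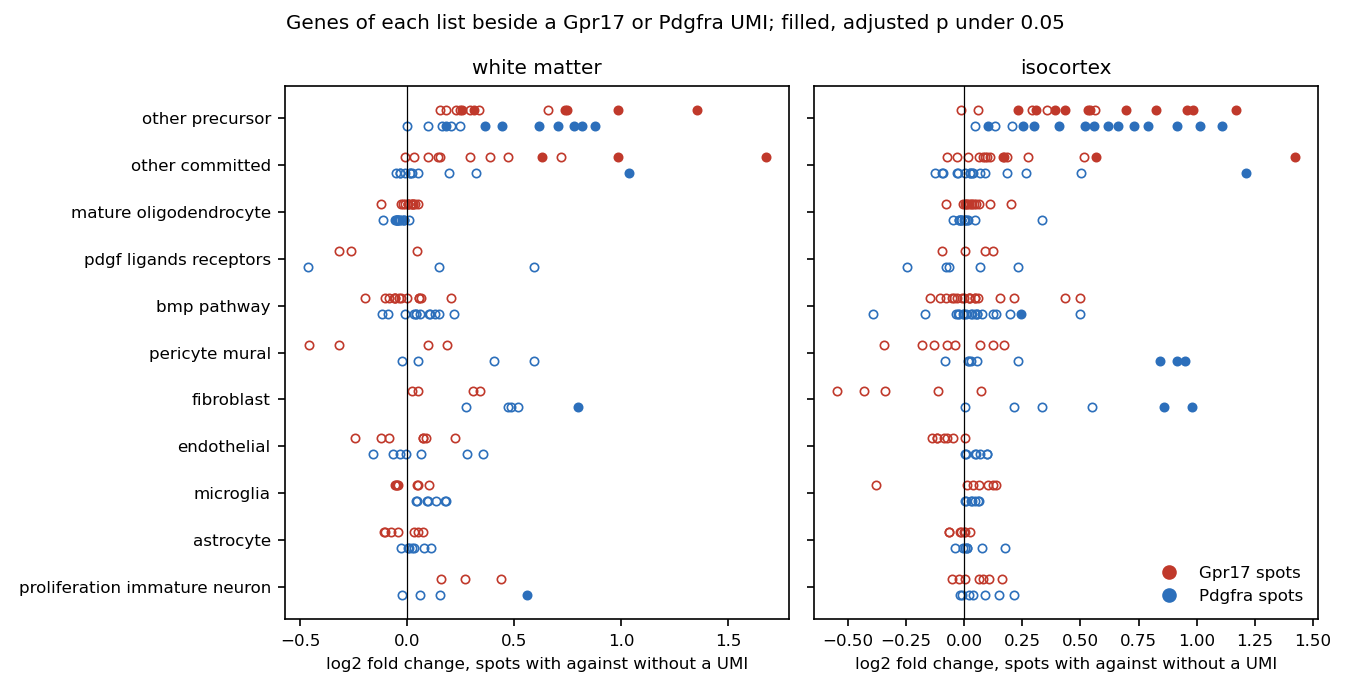
Log2 fold change (x axis) in spots with a Gpr17 UMI (red) or a Pdgfra UMI (blue) against matched spots without one, in white matter and isocortex, for each tested gene of the lists (rows); filled points passed an adjusted p of 0.05. Most further precursor genes lie to the right for both anchors, and filled fibroblast and mural points occur beside Pdgfra.

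In the rest of the lineage a few genes fell with age in white matter. In whole sections no gene passed in old against young among 16 further precursor, 18 further committed and 13 mature genes. In white matter, 2 of 16 further precursor genes fell, Tnr (-0.68, SE 0.14, edgeR adjusted p = 0.00405) and Vcan (-0.80, SE 0.21, adjusted p = 0.0322), both matrix proteins, with a median of -0.13 (of all genes, 0.729% fell and 1.53% rose). Of 17 tested further committed genes 3 fell, namely Fyn, a kinase (-0.59), Tmem163, a zinc transporter (-0.75), and Ust, a sulfotransferase (-0.97), and 16 of 17 folds were below 0 (median -0.52), as were 49.5% of all genes. Mature genes gave 1 fall (Mal, -0.59) and 1 rise (Klk6, 0.70) of 13. Their summed level in white matter was 54202 and 57566 CPM in young, 49461 and 42658 in middle, and 52261 and 49438 in old, so both young sections were the highest, as for the committed genes. From young to middle 12 of 13 mature folds were below 0 (median -0.35), as were 49.9% of all genes, given with no test. The part of the mature genes' lower level in the values of the committed genes was not tested. These lists were chosen with results of these data known.

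Among the growth factor genes, the receptor Pdgfrb did not pass in white matter (0.07, SE 0.20) and the ligand Pdgfa did not pass (-0.29, SE 0.12, edgeR adjusted p = 0.276). The ligand Pdgfb rose by 1.05 (SE 0.25, adjusted p = 0.0159) and Pdgfc fell by 1.24 (SE 0.31, adjusted p = 0.0225). Pdgfb was at 6.92 and 6.80 CPM in young and 14.3 to 15.4 in the other 4 sections. None of 20 BMP pathway genes passed, with a median of -0.04, and the BMP targets Id1, Id2, Id3 and Id4 had folds of 0.25, -0.05, -0.15 and -0.24. In the same spots 5 of 7 microglial genes rose, where 1.53% of all genes did, and the summed level of the 7 was 763 and 934 CPM in young, 1116 and 1245 in middle and 1578 and 1850 in old. Of 7 astrocyte genes Gfap (0.95) and Aldh1l1 (0.67) rose, and their sum was 2976 and 3166 CPM in young, 3147 and 3263 in middle, and 3729 and 4190 in old. The part of either list in the age values of the committed genes was not tested. Of 9 tested mural genes Tagln rose by 1.62, and of 6 tested proliferation and immature neuron genes Sox11 fell by 1.23, from 14.1 and 13.6 CPM in young to 5.73 to 6.59 in the other 4 sections.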

How the data were processed

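Visium gene expression was measured in 6 sections (2 mice at each of 3 ages). The authors deposited, per section, UMI counts per gene and spot; per the file headers the software was Space Ranger 1.3.1, while the submitters' processing notes list version 3.1, with build mm10. Other alignment settings are not given in the sources used here. Spots with at least 500 UMIs were kept. Clusters came from scanpy 1.11.5 (2000 variable genes without the 6 members, 30 components, 20 neighbours, Leiden resolution 0.8). A cluster took a region name with at least 3 markers among its 50 leading genes. Counts were summed per section and region and tested with edgeR 4.0.16 in R 4.3.3 (quasi-likelihood, TMM factors, low counts filtered, Benjamini-Hochberg over all genes tested, threshold 0.05). With 2 sections an age the fit had 3 residual degrees of freedom. CPM values are UMIs per 1000000 of the sum, and fold changes come from the fit. Standard errors were taken from the fold change and its F value. For the spot comparisons each spot with a UMI was paired with the nearest in total UMIs of its cluster and section. The fits were tested on simulated data. DESeq2 1.42.0, other scaling, filters, thinning, region definitions and leaving out each section were alternatives. Named genes were the 6 members, called genes of fixed lists, and the 8 genes of largest fold per spot comparison among those called, at a mean of 10 CPM or more and higher in 6 of 6 sections. The 5 most like genes had a mean of 5 CPM or more. The members, lists and rules were chosen with earlier results of these data known. Upstream sequences are from RefSeq (GRCm38.p6), with 5 of 6 members matched. Whether groups overlapped, and the rule of 6 sections, were read on plain CPM in place of TMM-scaled CPM, a choice made after the values were seen. In the age fits, p-values measure the spread between 2 mice an age. In the spot comparisons they measure how the difference within a section varied over 6 sections of all ages. In the test of white matter against all other spots they measure how that difference varied between sections of an age.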

Additional observations from a re-analysis of the deposited data

Results flagged for a closer look

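The change of Gpr17 with age was set against that outside white matter. From young to old, the log2 fold change in white matter spots minus that in all other spots was -0.63 (edgeR interaction test, adjusted p = 0.0261, 2 sections an age). Over its alternatives the value stayed below 0, from -0.79 to -0.44, with adjusted p from 0.00553 to 0.489, and it passed in 8 of 14. The young sections are those of the lower white matter Gpr17 known when the genes were listed, so the p is no independent support. Gpr17 was lower in both old sections than in both young ones in each compartment, so the difference is one of size. White matter of young 2 held 304 Gpr17 UMIs, of which 63 lay in 1 spot.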

How the results depend on the processing

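The numbers of sections (2 an age) and of Bmp4 and 9630013A20Rik UMIs limit the precision, and for the changes listed here the cause was not tested. Of 818 values recomputed under an alternative, 701 were classed as the same and 9 as reversed. Among them are counts of genes called and ratios of levels, which are not tests, and members not called in any fit. The calls of 9630013A20Rik in whole sections and of Gpr17 in white matter were lost under several alternatives, given below.

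The number of genes called in old against young was 29 in whole sections, and it was 194 with DESeq2, 113 with no filter on low counts and 7 with slide as a block. In middle against young it was 12, and it was 70 with DESeq2, 58 with no filter, 6 with at least 10 UMIs in every sum, 3 with slide as a block and 6 when thinned to the smallest sum. White matter gave 288 calls in old against young, against 120 with DESeq2, 452 with no filter and 184 with slide as a block. The test of white matter against all other spots gave 220 calls, against 65 with DESeq2, 144 with at least 10 UMIs, 117 at a Leiden resolution of 1.2 and 116 with edgeR's newer quasi-dispersion, which was chosen after seeing the data. Leaving out each section in turn gave 6 to 75, 1 to 33, 118 to 294 and 84 to 365 calls in these 4 comparisons.

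Spots with a Gpr17 UMI gave 26 calls in white matter and 50 in the isocortex, and spots with a Pdgfra UMI gave 21 and 87. Without matching of spots the counts were 41 and 113 for Gpr17 and 212 for Pdgfra in the isocortex. Thinned to 5000 UMIs a spot, with fewer spots holding the UMI and no matching, they were 10 and 5 for Gpr17 and 4 and 16 for Pdgfra. DESeq2 called 4 and 10 for Gpr17, and 0 and 16 for Pdgfra, where 62 genes had an unadjusted p under 0.05 in white matter. Leaving out each section gave 16 to 39, 30 to 73, 12 to 24 and 64 to 78 calls.

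For 9630013A20Rik in whole sections, slide as a block gave -1.98 in old against young (adjusted p = 0.137) and -1.95 in middle against young (adjusted p = 0.181), so both calls were lost. In middle against young the call was also lost with at least 10 UMIs in every sum (-1.85, adjusted p = 0.0576) and when thinned (-1.85, adjusted p = 0.0756). Leaving out each section gave -2.06 to -1.71 in old against young and -2.03 to -1.67 in middle against young, and -3.08 to -1.98 in white matter. Gpr17 in white matter, old against young, was -1.07 with slide as a block (adjusted p = 0.204) and -1.36 with white matter taken by myelin share (adjusted p = 0.0904), and -1.49 to -0.77 with a section left out. Its difference from all other spots was -0.62 with at least 10 UMIs (adjusted p = 0.0667), -0.63 with the newer dispersion (adjusted p = 0.0813), -0.48 without the richest spots (adjusted p = 0.190), also chosen after seeing the data, and -0.78 to -0.44 with a section left out.

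Beside Gpr17 in white matter, spots thinned to 5000 UMIs gave 0.87 for Pdgfra and 0.83 for Cspg4, and DESeq2 gave 1.08 for Cspg4, each without a call. In the isocortex thinning gave 1.07 and 1.15. Beside Pdgfra, Cspg4 was 1.06 with DESeq2 in white matter and 0.60 when thinned in the isocortex, where Gpr17 was 1.15. Without each section in turn, Pdgfra beside Gpr17 spanned 1.01 to 1.14 in white matter and 0.89 to 1.00 in the isocortex, and Cspg4 spanned 0.97 to 1.16 and 0.73 to 0.95. Beside Pdgfra, Cspg4 spanned 0.82 to 1.29 and 0.88 to 1.04, and Gpr17 in the isocortex 0.77 to 1.04.

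Values near 0 changed sign. Pdgfra in white matter, old against young, was -0.11, and it was 0.000926 by myelin share and spanned -0.25 to 0.027 with a section left out (positive without young 2). Enpp6 in whole sections, old against young, was 0.11 and spanned -0.10 (without old 2) to 0.29. In middle against young, Pdgfra was -0.01 and spanned -0.079 to 0.060 (above 0 without young 2 or middle 1), and Enpp6 was -0.06 and spanned -0.15 to 0.020 (above 0 without young 1 or middle 2). For Enpp6 the white matter change minus that elsewhere was -0.21 and spanned -0.45 to 0.034 (without old 2), and beside Pdgfra in white matter Enpp6 was -0.05 and spanned -0.13 to 0.039 (without young 2). The share of spots with a UMI, as a log2 ratio of old over young, was -0.16 for Pdgfra, -0.10 for Cspg4, -0.17 for Enpp6 and -2.03 for 9630013A20Rik. Among spots of at least 10000 UMIs, each thinned to 10000, it was 0.13, 0.24, 0.033 and -2.40. This left out 192 and 235 spots in young and 350 and 343 in old, so the set of spots changed as well as the depth.

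The section numbers gave little sign of pairing. Deviations from the age means correlated across genes at 0.02 (young and middle), 0.13 (young and old) and 0.24 (middle and old) in whole sections. In white matter the values were 0.01, -0.01 and 0.07 in the same order. For middle and old the replicate number equals the slide, so pairing and a shared slide difference cannot be told apart there. With the replicate number as a block, the old against young calls went from 29 to 21 in whole sections and from 288 to 287 in white matter, and 9630013A20Rik in whole sections was -1.89 (adjusted p = 0.0581) in old against young and -1.85 (adjusted p = 0.0661) in middle against young.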
